A study of Mus musculus with 12 samples.

Results

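The 3 vehicle-treated MC38 tumors of this series were described here as a reading of gene abundance, with no comparison between treatments. They are the 3 control libraries, denoted Con replicates 1 to 3, among 12 libraries in 4 groups of 3, and they were chosen by their labels alone. MC38 cells, a mouse colon carcinoma line, had been injected subcutaneously into the right flank in female C57BL/6 mice, which are labelled WT. The labels give their age as 6 weeks, which the methods of the study give as the age at purchase, before a time of acclimation. These control mice were injected with an IgG2a antibody and with the vehicle, which the labels give as saline and the methods of the study as saline with DMSO and Tween, and the tumors were taken on day 19. The labels call the sampled material tumor cells, but the RNA came from whole tumor tissue, with no sort described. Nothing in the labels says that the 3 libraries came from separate mice, so the spread given below is the spread between libraries. Every set of 3 values stands in the order tumor 1, tumor 2, tumor 3.

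The MC38 line came from a colon tumor raised by a carcinogen in a C57BL/6 mouse, and it is widely used because it grows in mice with an intact immune system. A piece of such a tumor mixes cancer cells with the macrophages, lymphocytes, fibroblasts and vessels of the host. The library therefore holds the RNA of all these cells together, and a low level of a gene cannot tell fewer cells of a type from less RNA per cell. Abundance is given as CPM, the reads of a gene scaled to 1000000 counted reads of its library. The 3′ mRNA-Seq method places reads at the end of each transcript, so that counts do not grow with transcript length and CPM was compared between genes without division by length.

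Total counts were 10960304, 9611832 and 10023350. A gene with 3 counts or fewer was taken to be at the floor, which lay at 0.274, 0.312 and 0.299 CPM. Of 8875 entries with a mean of 10 CPM or more, 171 (1.93%) were lower in tumor 1 by 2 times or more than in both other tumors, against 69 (0.777%) for tumor 2 and 10 (0.113%) for tumor 3. The median log2(CPM + 1) of the 171 entries, which were chosen for their low values in tumor 1, was 3.64 in tumor 1, 5.09 in tumor 2 and 5.21 in tumor 3. Tumor 1 also had the highest share of counts in Rn45s, the precursor of ribosomal RNA, at 10.3% against 7.80 and 6.84%, and the part of this in the 171 entries was not tested. The leukocyte lists (pan-leukocyte, macrophage, monocyte, dendritic cell, neutrophil, T cell, natural killer cell, B cell and MHC class II) hold 53 entries at this level. The cytotoxic and regulatory T cell lists were not counted in. None of the 53 was among the 171, which is near the 1.93% of all entries. The set low in tumor 2 held 9 of the 53, beside 0.777% of all entries. Values that rest on genes low in tumor 1 are given below with tumor 1 beside the other tumors.

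The tumors shared one order of abundance. Of 23282 entries in the table, 13065 (56.1%) were above the floor in each tumor, 1819 in only 1 or 2 tumors, and 2425 had counts but never passed the floor. A further 5973 entries had no count in any tumor. The entry in the middle of those above the floor stood at 18.2, 19.9 and 20.6 CPM. The 95 entries with a mean of 1000 CPM or more held 25.6% of all counts, and the 1994 entries between 100 and 1000 CPM held 46.8%. The 6786 entries between 10 and 100 CPM held 25.8%. Below that, 3770 entries between 1 and 10 CPM held 1.67% and 4664 entries under 1 CPM held 0.123%. It took 580, 620 and 711 entries to reach 50% of the counts of a tumor.

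The most abundant entry by far was Rn45s, at 103410, 78002 and 68436 CPM. The 10 leading entries together took 14.3, 11.9 and 10.7% of the counts. Behind Rn45s stood Actb, the beta-actin of the cytoskeleton, at 7587, 6832 and 7142 CPM. B2m, the light chain of MHC class I, reached 5517, 5570.2 and 6726 CPM. Hsp90ab1, a chaperone of the cytosol, was at 5792, 6059.5 and 5141 CPM, and Rplp1, a ribosomal protein, at 5102, 5327 and 4395 CPM. The remaining 15 of the first 20 were mostly parts of the machinery of translation. These were Serbp1, Rpl22, Pabpc1, Rpl37rt, Gnb2l1, Rpl13, Rps20, Rps14, Eif2s2, Rpl32 and Rpl34, together with Ncl of the nucleolus. The other 3 were S100a6, Ifitm3 and Vim, which are described below. Ribosomal protein genes as a whole had 102 of 104 entries above the floor and held 8.53% of the counts, and 36 of them were among the 100 most abundant entries. Of the 100 most abundant entries of a tumor, 87 were shared by all 3 tumors.

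**Figure D1:**
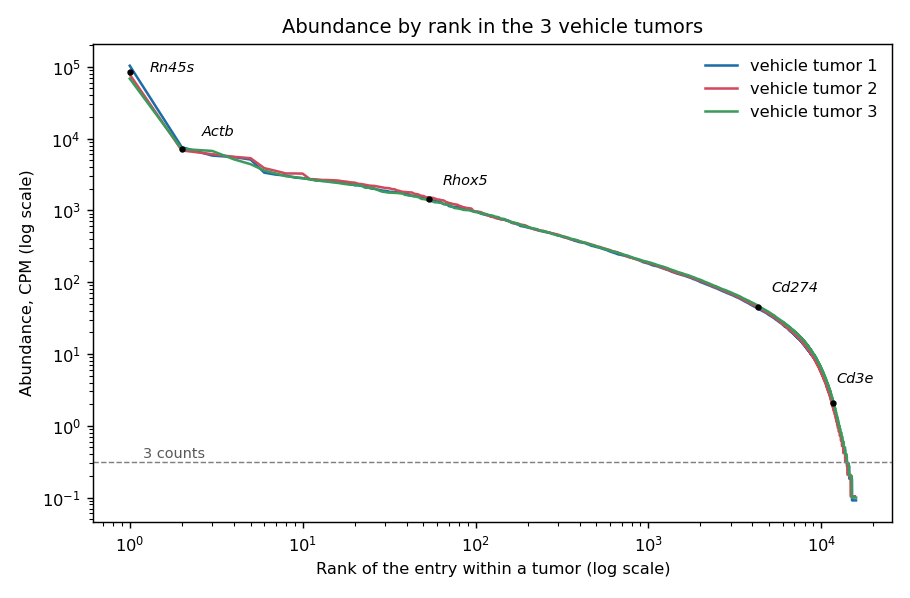
Abundance in CPM against the rank of the entry within each vehicle tumor, both on log scales, with 1 line per tumor; black points show the mean CPM and rank of 5 named genes and the dashed line the highest of the 3 floors of 3 counts. The lines lie on each other below the first rank, at which Rn45s stands at 103410, 78002 and 68436 CPM.

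Promoters of 4 genes are printed to set the ends of this range side by side. B2m and Vim were among the 20 most abundant entries, Rhox5 is a homeobox gene of restricted use that was abundant here, and Epcam is an epithelial gene that was at the floor. Each run holds 250 bases before the transcription start and 50 bases after it, 5′ to 3′ on the strand of the gene, from RefSeq on the build GRCm38.p6, with every CG pair in capitals. B2m lies at chr2:122147437-122147736, Vim at chr2:13574061-13574360, Rhox5 at chrX:37754358-37754657 and Epcam at chr17:87635729-87636028, all on the plus strand.
B2m: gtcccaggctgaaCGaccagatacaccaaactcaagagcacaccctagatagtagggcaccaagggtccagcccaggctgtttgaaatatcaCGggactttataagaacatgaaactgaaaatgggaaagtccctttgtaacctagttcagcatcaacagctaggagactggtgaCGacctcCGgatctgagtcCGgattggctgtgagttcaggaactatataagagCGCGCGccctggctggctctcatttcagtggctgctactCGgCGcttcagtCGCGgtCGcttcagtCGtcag
Vim: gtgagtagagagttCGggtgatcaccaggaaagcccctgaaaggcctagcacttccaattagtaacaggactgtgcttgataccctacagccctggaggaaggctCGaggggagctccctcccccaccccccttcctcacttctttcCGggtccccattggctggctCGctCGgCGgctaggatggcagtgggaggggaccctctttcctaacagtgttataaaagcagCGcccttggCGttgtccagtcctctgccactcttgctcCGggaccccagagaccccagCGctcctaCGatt
Rhox5: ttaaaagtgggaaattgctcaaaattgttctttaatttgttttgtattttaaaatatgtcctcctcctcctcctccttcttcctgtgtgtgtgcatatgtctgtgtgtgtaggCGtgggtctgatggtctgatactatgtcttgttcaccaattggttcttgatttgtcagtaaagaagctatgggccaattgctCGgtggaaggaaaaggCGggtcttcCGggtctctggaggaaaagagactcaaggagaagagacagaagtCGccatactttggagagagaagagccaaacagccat
Epcam: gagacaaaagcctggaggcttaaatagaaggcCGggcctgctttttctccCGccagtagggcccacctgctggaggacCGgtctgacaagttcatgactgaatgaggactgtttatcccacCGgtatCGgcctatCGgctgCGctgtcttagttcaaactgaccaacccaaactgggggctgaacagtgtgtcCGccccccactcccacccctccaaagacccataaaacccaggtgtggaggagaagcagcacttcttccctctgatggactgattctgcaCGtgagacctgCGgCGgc
These windows hold 14 CG pairs in B2m, 11 in Vim, 5 in Rhox5 and 11 in Epcam, beside a median of 7 (quartiles 3 and 20) over the 32851 windows of the reference table. The letters TATAAA, searched on both strands, are in the windows of B2m and Vim and not in those of Rhox5 and Epcam, and they are in 13.6% of all windows. In Vim they are on the strand of the gene, and in B2m on the opposite strand only. The window of Epcam, at the floor in these tumors, thus holds as many CG pairs as that of Vim. Of 23236 distinct symbols, 17217 (74.1%) had a window, and promoter features were not compared between classes of abundance.

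Genes were then grouped into 39 lists by cell type or function. The sums of these lists were highest for antigen presentation, the mesenchymal state, glycolysis and proliferation, and among the lowest for colon epithelium and B cells. The order is a description, since the lists differ in size. Each number of list entries above the floor stands beside 56.1% of all entries in the table.

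**Figure D2:**
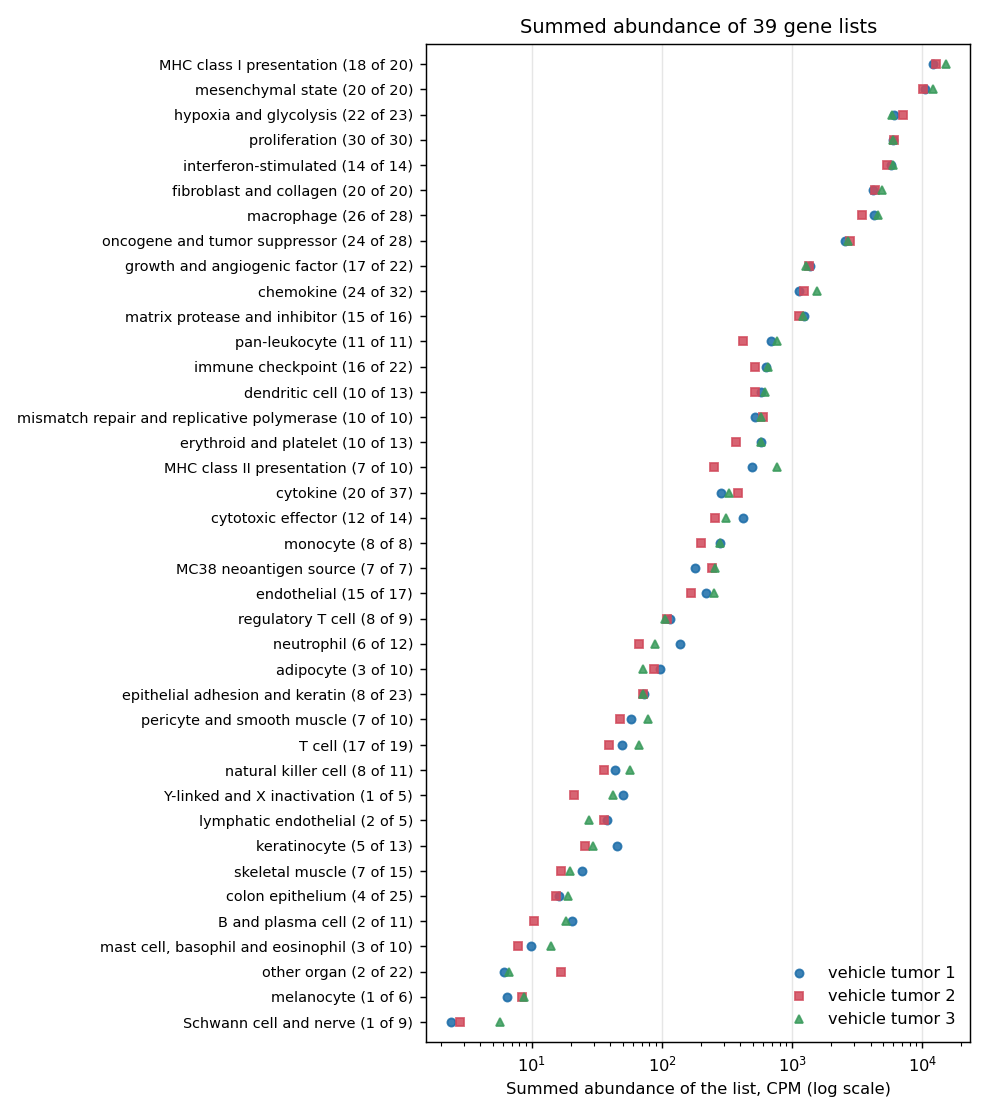
Summed CPM (log scale) of each gene list in the 3 vehicle tumors, 1 mark per tumor, with the number of entries above the floor out of all entries in brackets. MHC class I presentation leads at 12129, 12770.5 and 15128 CPM, and the colon epithelium list stands at 16.2, 15.2 and 18.9 CPM.

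Genes of the mesenchymal state were high in these tumors, and those of gut epithelium were low. All 20 entries of the mesenchymal list were above the floor, with a sum of 10424, 10177 and 12065 CPM. S100a6, a calcium-binding protein, led the list at 2809, 2627 and 3581 CPM. Vim, the intermediate filament of mesenchymal cells, stood at 2096, 2542 and 2902 CPM, and Lgals1, a galectin, at 1468, 1257 and 1319 CPM. S100a4, a further S100 protein linked to motile cells, was at 1069.6, 752 and 1053 CPM. Fn1 (fibronectin), at 1007, 732 and 959 CPM, was of the same order. The transcription factors that drive the epithelial to mesenchymal transition were also measured, from Zeb2 at 96.9, 106 and 90.8 CPM to Snai2 at 12.6, 15.1 and 15.1 CPM. Snai1 was at 55.8, 116 and 112 CPM and is one of the genes low in tumor 1 alone. The leukocytes and fibroblasts of the tumor use several of these genes as well, and their part in these levels was not tested.

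Epithelial genes were low. Of 23 entries for epithelial adhesion and keratins, 8 (against 56.1% of all entries) were above the floor in each tumor, and their sum was 73.1, 71.7 and 71.4 CPM. Most of that sum came from Tjp1, a tight junction protein that other cell types use too, at 37.8, 44.3 and 42.7 CPM. Prss8, a membrane protease, was at 9.76, 11.2 and 10.97 CPM and Pkp3, a desmosome protein, at 8.76, 5.72 and 4.49 CPM. Cdh1 (E-cadherin) was low but above the floor at 3.74, 2.39 and 3.49 CPM. Epcam, the surface antigen of epithelial carcinomas, was at the floor with 0, 3 and 2 counts. The simple keratin Krt8 stood at 0.639, 0.936 and 0.798 CPM. Cldn7, a claudin, and Esrp2, a splicing factor of epithelia, had no count.

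Markers of the colon itself were low, and none of the 25 entries reached a mean of 10 CPM. Only 4 passed the floor in each tumor (against 56.1% of all entries). Among them were Chga at 1.004, 3.43 and 2.89 CPM and Vil1 at 2.74, 2.08 and 1.995 CPM. Chga marks enteroendocrine cells, and Vil1 bundles actin in the brush border. The intestinal master regulator Cdx2 had 0, 1 and 1 counts. Another 10 entries had no count in any tumor: Cdx1 and Hnf4a (transcription factors), Lgals4, Slc26a3, Fabp2 and Car1 (enterocyte proteins), Phgr1, Tff3 (goblet cells), Guca2a and Olfm4. At this depth 0 counts allow up to 0.274, 0.312 and 0.299 CPM.

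Homeobox genes were measured at levels that differed widely within each family. Rhox5, an X-linked homeobox gene known from testis, epididymis and placenta, was among the 100 most abundant entries at 1316, 1545 and 1424 CPM. It made up 93.8% of the counts of its family. In this family 8 of 31 entries were above the floor (against 56.1% of all entries) and 10 had no count. Rhox2h at 51.5, 14.5 and 35.6 CPM and Rhox2a at 32.02, 12.6 and 19.7 CPM followed, and these near-identical copies may share reads. Rhox6 was at 0.0912, 0.208 and 20.8 CPM, so that it was measured in tumor 3 alone.

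Of 39 Hox entries, the genes that record position along the body axis, 28 were above the floor (against 56.1% of all entries). The family summed to 341, 392 and 369 CPM. Hoxc9 led at 68.4, 65.9 and 78.8 CPM, ahead of Hoxa9 at 48.99, 73.5 and 48.5 CPM, and their ranges overlapped between tumors. Hoxa7 at 31.8, 31.9 and 28.03 CPM, Hoxd8 at 22.8, 33.7 and 30.1 CPM and Hoxa10 at 29.2, 30.6 and 26.7 CPM came next, followed by Hoxc6 at 18.5, 25.7 and 19.1 CPM and Hoxd13 at 11.5, 21.3 and 17.9 CPM. The anterior paralog groups 1 to 4 summed to 24.6, 25.2 and 20.2 CPM and the middle groups 5 to 8 to 97.3, 115 and 113 CPM. The posterior groups 9 to 13 held most of the family at 219.5, 252 and 236 CPM. By cluster, the mean sums were 149 CPM for Hox A, 119 CPM for Hox C, 75.8 CPM for Hox D and 24.3 CPM for Hox B. Hox genes of host cells enter the same sums.

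Among 28 oncogenes and tumor suppressors, 24 were above the floor and 7 reached a mean of 100 CPM, with a median of 39.6 CPM over the 28. Ccnd1 (cyclin D1) led at 528, 635 and 559.99 CPM, followed by Ccnd2 at 471, 467 and 433 CPM and Ctnnb1 (beta-catenin) at 419, 436 and 466 CPM. Trp53, the gene of p53, was at 15.5, 27.8 and 26.8 CPM, and its target Cdkn1a at 139, 145 and 119 CPM. Myc, the growth regulator, was at 7.57, 27.9 and 18.4 CPM and is one of the genes low in tumor 1. Cdkn2a, the locus of p16 and Arf, was low but above the floor at 1.64, 3.02 and 1.995 CPM. Mycn, Mycl, Axin2 and Erbb3 were not above the floor in each tumor, and of these Mycn and Erbb3 were at the floor in all 3. Axin2 is a usual target of beta-catenin signaling and had 2, 4 and 2 counts.

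**Figure D3:**
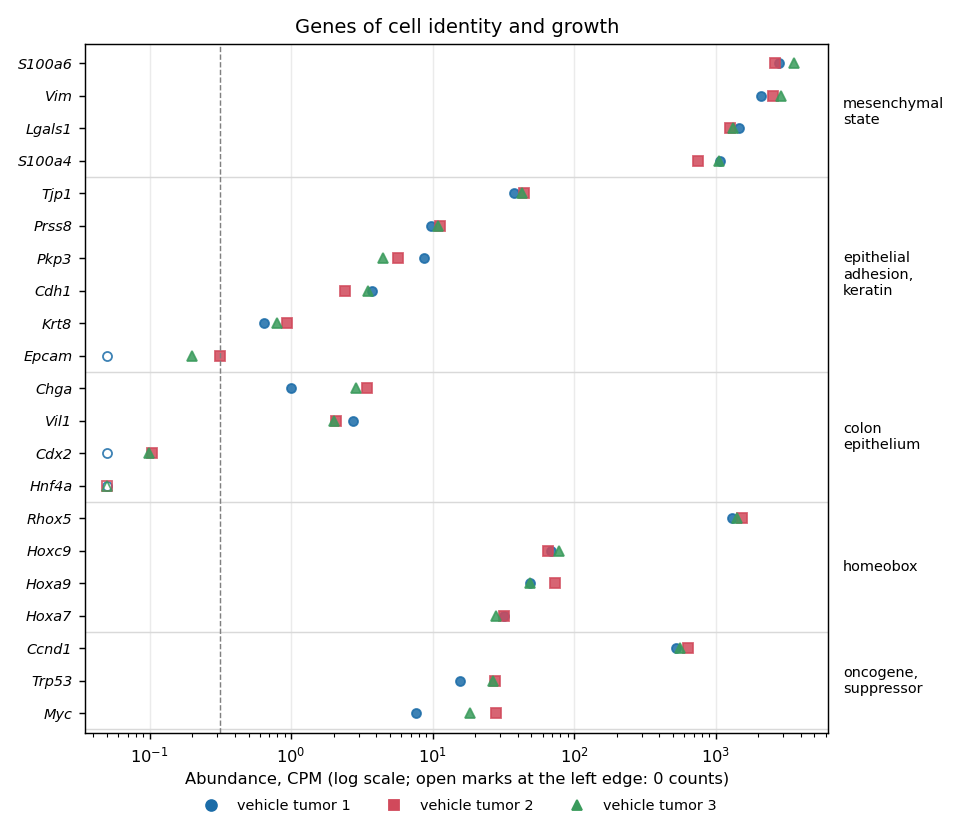
CPM (log scale) of genes of cell identity and growth in the 3 vehicle tumors, 1 mark per tumor; the dashed line is the highest floor, and open marks at the left edge stand for 0 counts. The 4 mesenchymal genes lie far to the right of all epithelial genes, while Epcam, Cdx2 and Hnf4a lie at the floor.

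All 10 entries for mismatch repair and replicative polymerases were above the floor, with a sum of 518, 595 and 581 CPM. Pcna, the sliding clamp, was at 121, 153 and 169 CPM, Msh6 at 94.98, 133 and 124 CPM and Pole, the leading-strand polymerase, at 53.6, 48.5 and 43.9 CPM. All 7 genes listed here as sources of mutant antigens in MC38 cells were also above the floor, and their sum was 180.5, 241 and 257 CPM. This list was written by hand and may not be complete. Cpne1 was at 29.2, 70.3 and 84.1 CPM and Dpagt1 at 59.9, 55.5 and 62.95 CPM. Reps1 was at 23.4, 26.6 and 34.9 CPM and Aatf at 23.1, 32.4 and 25.3 CPM, while Adpgk, the source of a widely used MC38 neoantigen, was at 8.76, 21.02 and 16.2 CPM. Cpne1 is low in tumor 1 alone, and without that tumor the mean sum of the 7 genes was 249 CPM instead of 226. Counts per gene do not tell the mutant from the host transcript.

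The 30 proliferation genes were all above the floor, with a sum of 5949, 6072 and 5970.3 CPM (5997 ± 65.5, SD, n = 3). The SD of this sum was 229 CPM with TMM-scaled library sizes and 227 CPM with DESeq2 size factors. Top2a, the topoisomerase of dividing cells, was at 1524, 1456 and 1364 CPM and Mki67, the gene of the Ki-67 antigen, at 496, 400.4 and 371 CPM. Mcm7 and Mcm3, parts of the replicative helicase, were at 385, 342 and 336 CPM and 296, 329 and 312 CPM. Of the 30, 17 had their lowest value in tumor 1, beside 37% of all entries above the floor. Which tumor was lowest in the sum depended on the scaling.

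Glycolysis and hypoxia genes summed to 6110.3, 7067 and 5846 CPM with 22 of 23 entries above the floor. Pkm (pyruvate kinase) at 1138, 1167 and 1069.6 CPM, Ldha (lactate dehydrogenase) at 852, 1075 and 935 CPM, Aldoa (aldolase) at 803, 854 and 757 CPM and Pgam1 (phosphoglycerate mutase) at 603, 722 and 528 CPM led. Tumor 2 was the highest in 15 of the 22 entries, beside 28.7% of all entries above the floor. Tumor 3 was the lowest in 14, beside 22.5% of all. Ndrg1, a hypoxia-induced gene, was at 352, 531 and 284 CPM and Car9, a carbonic anhydrase under the same control, at 19.4, 54.1 and 49.8 CPM and low in tumor 1 alone. Vegfa, the main angiogenic factor, was level at 92.2, 86.04 and 82.01 CPM. Eno1, a glycolytic enolase, was at the floor, while 2 entries named Eno1b stood at 211 and 209 CPM on average. Gapdh was at only 109, 119.5 and 108 CPM. Both enzymes have near-identical copies in the genome, so that their levels are uncertain.

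Leukocyte genes were plainly present. All 11 pan-leukocyte entries were above the floor with a sum of 684, 419 and 766 CPM, and 10 of the 11 were lowest in tumor 2, beside 40.6% of all entries. Ptprc, the gene of CD45, was at 137, 69.2 and 144 CPM. Lcp1, an actin-bundling protein of leukocytes, was at 133, 97.3 and 152 CPM, Cd52, a small surface glycoprotein, at 129, 71.8 and 151 CPM and Laptm5, a lysosomal protein, at 109, 63.6 and 116 CPM. Tumor 2 was below both other tumors in each of these 4 genes, and tumors 1 and 3 lay close together. Without tumor 2 the mean sum was 725 CPM, against 623 ± 182 CPM (SD, n = 3) with it.

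Macrophage genes had the largest sum among the lists of leukocyte types, with 26 of 28 entries above the floor and a sum of 4236, 3424 and 4587 CPM. Spp1 (osteopontin), which tumor cells can also make, led at 985, 1298 and 1049 CPM. Ctss, a lysosomal protease of antigen-presenting cells, was at 806, 392 and 815 CPM, and Ctsb, a protease of many cell types, at 515, 415 and 505 CPM. Apoe, a lipid carrier of macrophages, was at 489, 303 and 563 CPM. The defining genes Csf1r, the receptor that macrophages depend on, and Adgre1, the gene of F4/80, were at 138, 61.4 and 136 CPM and 39.5, 18.4 and 36.9 CPM, about halved in tumor 2. Itgam, the gene of CD11b, was at 18.6, 15.4 and 23.8 CPM, and Mrc1, the gene of CD206, at 26.4, 32.8 and 24.8 CPM.

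Not all macrophage genes shared the low values of tumor 2. Nos2, the inducible nitric oxide synthase, was at 2.46, 8.53 and 5.89 CPM and Cd163, a scavenger receptor, at 3.19, 7.699 and 6.88 CPM. In all, 18 of the 26 macrophage entries were lowest in tumor 2, beside 40.6% of all entries. Another 8 were highest there, a share close to the 28.7% of all entries. Vsig4, a complement receptor of resident macrophages, was at the floor with 2, 0 and 0 counts. All 8 monocyte entries were above the floor with a sum of 277, 199.96 and 277 CPM. Plac8 was at 62.3, 74.2 and 95.98 CPM, and Ly6c2, which marks inflammatory monocytes, at 62.9, 34.2 and 55.3 CPM. Cx3cr1, a chemokine receptor, was at 56.5, 22.1 and 56.9 CPM and Ccr2, the receptor for Ccl2, at 35.6, 23.7 and 38.2 CPM. Ly6c1, the neighbouring gene that endothelium also uses, was at 86.1, 118 and 81.7 CPM.

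T cell genes were low beside myeloid genes, although 17 of 19 entries were above the floor. Their sum was 49.5, 39.1 and 66.7 CPM. Cd3d, of the CD3 complex, led at 8.303, 8.32 and 9.18 CPM, and Cd3e was at 2.28, 1.04 and 2.99 CPM. Cd8a and Cd8b1, which form the CD8 coreceptor, were at 5.84, 4.37 and 9.08 CPM and 3.38, 2.08 and 8.08 CPM, with the highest values in tumor 3. Cd4 was at 0.365, 0.832 and 2.29 CPM, or 4, 8 and 23 counts, so that a difference between tumors at this level rests on few reads. Icos, a costimulator, was at 6.295, 4.47 and 4.99 CPM. The constant regions of the T cell receptor (Trac, Trbc1, Trbc2) were not analysed here.

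Of the regulatory T cell list, 8 of 9 entries were above the floor with a sum of 115, 108 and 105 CPM. Tnfrsf9 (4-1BB) led at 64.4, 72.3 and 52.7 CPM, and Foxp3, the defining factor of the type, was at 20.9, 14.7 and 20.5 CPM. Ccdc22, the entry beside Foxp3, had nearly the same counts (227, 140 and 203, against 229, 141 and 205), so these reads cannot be ascribed to Foxp3 alone. Ikzf2, the gene of Helios, was at 9.22, 10.1 and 15.96 CPM and Tnfrsf18, the gene of GITR, at 7.12, 3.64 and 6.98 CPM. Ctla4 was at only 0.547, 0.416 and 0.599 CPM, and Ccr8, a receptor of tumor regulatory T cells, had no count.

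The cytotoxic list held 12 of 14 entries above the floor, with a sum of 418, 253 and 311 CPM. It was led by granzymes other than the classic pair, namely Gzmc at 121, 76.9 and 91.8 CPM, Gzmf at 75.8, 41.2 and 61.6 CPM, Gzmg at 60.7, 32.6 and 34.5 CPM and Gzmd at 50.8, 28.8 and 26.3 CPM. These genes lie in one cluster and are alike in sequence, so reads may be split between them. Gzmb, the granzyme of killer cells in general, was at 10.1, 16.6 and 21.5 CPM, and Gzma, the other of the classic pair, was at 20.5, 7.28 and 9.68 CPM. Their orders differed, with Gzmb highest in tumor 3 and Gzma highest in tumor 1. Prf1 (perforin) was at 4.29, 1.14 and 2.99 CPM and Ifng, the gene of interferon gamma, at 0.73, 0.208 and 1.397 CPM, or 8, 2 and 14 counts. Gzmk, a granzyme of memory-like T cells, had no count.

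Natural killer genes were also low, at a sum of 43.5, 35.8 and 56.3 CPM, with 8 of 11 entries above the floor (against 56.1% of all entries). Il2rb, the beta chain of the IL-2 receptor, was at 13.3, 12.1 and 16.6 CPM and Klrk1, the gene of NKG2D, at 8.03, 4.89 and 8.48 CPM. Klrc1 and Klrd1, which form an inhibitory receptor, were at 7.299, 4.47 and 8.08 CPM and 4.56, 4.99 and 9.48 CPM. Ncr1, the gene of NKp46 that defines the type, was at 1.28, 0.416 and 1.397 CPM. It was therefore between 4 and 14 counts in each tumor.

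B cell genes were low. Only 2 of 11 entries were above the floor (against 56.1% of all entries). The sum was 20.2, 10.3 and 18.3 CPM, led on average by Cd22 at 15.6, 4.27 and 10.4 CPM. The antibody chain genes Ighm and Igkc were not analysed here. Pax5, Blk and Fcer2a, which define the lineage, had no count in any tumor, and Ms4a1, the gene of CD20, had 1 count in all. Cd79a, a chain of the B cell receptor, was at 2.37, 0.832 and 1.097 CPM. Jchain, of secreted antibodies, was at 0, 4.68 and 3.09 CPM, with no count in tumor 1.

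Neutrophil genes varied between the tumors, with a sum of 137, 66.1 and 87.8 CPM and a CV of 37.5%, and 6 of 12 entries were above the floor, a share near the 56.1% of all entries. Mmp9, which macrophages make too, was at 41.9, 32.4 and 43.7 CPM. S100a8 and S100a9, the calprotectin pair of neutrophils, were at 40.9, 11.1 and 17.9 CPM and 43.2, 13.5 and 17.5 CPM, both more than doubled in tumor 1. Cxcr2, a chemokine receptor of neutrophils, was at 5.66, 2.39 and 3.09 CPM. Of the granule genes, Mpo had no count and Elane, Ngp and Camp were at the floor. Among dendritic cell genes, 10 of 13 entries were above the floor. The sum was 577, 521 and 618 CPM, but most of it came from Fscn1, an actin bundler not restricted to dendritic cells, at 469, 452 and 505 CPM. Irf8 was at 54.9, 38.4 and 63.9 CPM, Itgax, the gene of CD11c, at 15.9, 9.78 and 22.2 CPM and Ccr7, which guides cells to lymph nodes, at 16.1, 5.202 and 9.88 CPM. Mast cell, basophil and eosinophil genes had 3 of 10 entries above the floor (against 56.1% of all entries) and a sum of 9.76, 7.803 and 13.97 CPM. They were led by the mast cell protease Tpsb2 at 3.47, 2.71 and 5.09 CPM, and the eosinophil gene Epx had no count.

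Antigen presentation through MHC class I was the largest of the lists, at 12129, 12770.5 and 15128 CPM with 18 of 20 entries above the floor. B2m has been given above. The heavy chains H2-D1 and H2-K1 were at 1106, 1974 and 2353 CPM and 1522, 1524 and 1747 CPM, and Calr, a chaperone of their loading, at 1124, 961 and 1012 CPM. Tap1, a subunit of the peptide transporter, was level at 282, 261 and 319 CPM. Its partner Tap2 was at 13.4, 76.8 and 98.9 CPM, so that it was more than 5 times lower in tumor 1 than in either other tumor. Psmb9, an immunoproteasome subunit, was at 60.8, 149 and 197 CPM and H2-T22, a nonclassical class I gene, at 37.4, 141 and 166 CPM. These 3 belong to the genes low in tumor 1 alone, while Psmb8 at 391, 358 and 488 CPM did not share the pattern. Without tumor 1 the mean sum of the list was 13950 CPM, against 13342 ± 1580 CPM (SD, n = 3).

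Class II genes varied the most of all lists over 100 CPM, with a sum of 494, 249 and 764 CPM and a CV of 51.4%. All 7 entries above the floor were lowest in tumor 2, beside 40.6% of all entries, and 6 were highest in tumor 3, beside 42.6%. H2-Aa, an alpha chain, was at 137, 71.5 and 275 CPM and H2-Ab1, its beta chain, at 82.8, 36.3 and 129.6 CPM. Cd74, the invariant chain, was at 112, 51.2 and 142 CPM and H2-Eb1 at 74.5, 32.3 and 113 CPM. Their regulator Ciita was at 0.456, 0.104 and 0.599 CPM. The interferon-stimulated list had all 14 entries above the floor and differed far less, at 5715, 5366 and 5985 CPM. Ifitm3, which blocks viral entry, was at 2622, 2451 and 2581 CPM and Rsad2 (viperin) at 757, 623 and 678 CPM. Isg15, a ubiquitin-like protein, was at 491, 556 and 667 CPM and Irf1, a factor induced by interferon gamma, at 309.8, 378 and 433 CPM.

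Checkpoint genes had 16 of 22 entries above the floor (against 56.1% of all entries) and a sum of 626, 514 and 652 CPM. Cd47, the signal against phagocytosis, was at 169, 141 and 179 CPM, Lgals9, a ligand of TIM-3, at 149, 113 and 151 CPM and Pvr, a ligand of TIGIT, at 99.4, 112 and 81.6 CPM. Sirpa, the receptor of CD47 on myeloid cells, was at 56.6, 35.6 and 68.9 CPM. Cd274, the gene of PD-L1, was level at 45.3, 43.6 and 46.9 CPM. Pdcd1, the gene of PD-1 itself, was at 1.09, 0.936 and 2.095 CPM, or 12, 9 and 21 counts. Ido2, of tryptophan breakdown, was at 11.6, 7.59 and 15.2 CPM. Tigit and Vtcn1 had no count, Btla was at the floor and Lag3 was at 0.274, 0.208 and 0.299 CPM, which is 3, 2 and 3 counts.

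**Figure D4:**
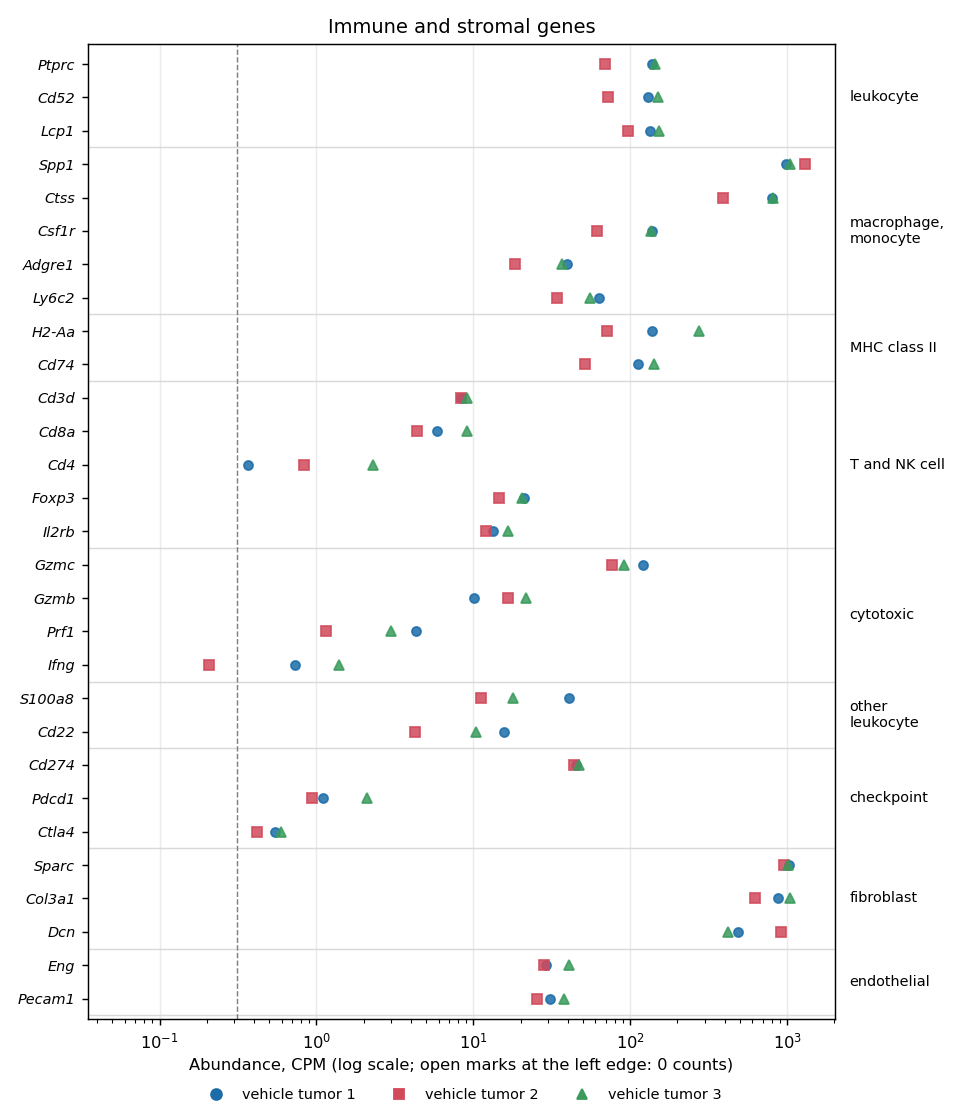
CPM (log scale) of immune and stromal genes in the 3 vehicle tumors, 1 mark per tumor; the dashed line is the highest floor, and open marks at the left edge stand for 0 counts. Tumor 2 is the lowest in Ptprc, Ctss, Csf1r, Adgre1, H2-Aa and Cd74 but the highest in Dcn, and Cd3d, Cd8a and Cd4 lie under 10 CPM.

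Chemokines were above the floor in 24 of 32 entries (against 56.1% of all entries), with a sum of 1119.8, 1229 and 1543 CPM. Cxcl10 led at 328, 365 and 392 CPM, while Cxcl9, the related ligand of CXCR3, was at 158, 63.9 and 139.7 CPM and lowest in tumor 2. Ccl2, which draws monocytes, differed widely at 100.5, 201 and 429 CPM and was in the set low in tumor 1, and Ccl8, of the same family, was at 75.3, 154 and 117 CPM. Cxcl15 and Ccl20 had no count. Of 37 cytokine entries, 20 were above the floor, a share like the 56.1% of all entries. Il33, an alarmin of epithelium and stroma, was at 50.1, 178 and 72.8 CPM, highest in tumor 2. Csf1 and Il34, the ligands of the macrophage receptor Csf1r, were at 31.8, 54.4 and 49.2 CPM and 42.1, 38.9 and 48.3 CPM, and Il1b, an inflammatory cytokine, at 50.6, 17.999 and 38.2 CPM. Tgfb2 was at 11.04, 10.4 and 12.7 CPM and Tgfb1 at 1.46, 0.832 and 0.798 CPM. The T cell cytokines Il2, Il4, Il5, Il13, Il17a, Il21 and Il22 had no count, nor did Csf2, Il12a, Ifnb1 and Ifna4.

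Growth and angiogenic factors had 17 of 22 entries above the floor, at 1365, 1355 and 1282 CPM. Mif, a factor that slows macrophage migration, was at 699.7, 772 and 655 CPM and Grn (progranulin) at 369.7, 275 and 298 CPM. Pdgfa was at 82.02, 98.8 and 111 CPM and Vegfb at 61.9, 65.5 and 53.3 CPM. Tgfa had no count, and Fgf1 and Fgf2 were at the floor.

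Stromal genes were abundant. All 20 entries for fibroblasts and collagens were above the floor, with a sum of 4203, 4336 and 4934 CPM. Sparc, a matrix protein, was nearly equal in the tumors at 1031, 960.3 and 1013 CPM. Col3a1 and Col1a2, fibrillar collagen chains, were at 879, 621 and 1048 CPM and 384, 609 and 809 CPM, with the highest value in tumor 3. Dcn (decorin), a small proteoglycan, went another way at 487, 908 and 418 CPM, highest in tumor 2. Pdgfra, a fibroblast receptor, was at 76.2, 84.9 and 71.4 CPM and Fap, the fibroblast activation protein, at 2.92, 1.66 and 5.19 CPM. Since mesenchymal tumor cells can make matrix too, the sum is not a measure of fibroblasts alone.

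Proteases and inhibitors of the matrix had 15 of 16 entries above the floor, at 1223, 1119.97 and 1213 CPM. Timp2 was at 393, 316 and 333 CPM, Timp1 at 208, 209 and 209 CPM, Mmp14, a membrane-bound metalloprotease, at 213, 189 and 197 CPM and Adam17, a sheddase, at 153, 126 and 141 CPM. Timp1 differed by less than counting error between the tumors, and Timp4 was at the floor. Endothelial genes had 15 of 17 entries above the floor, beside 56.1% of all entries, and summed to 217, 167 and 252 CPM. Of the 15, 14 were lowest in tumor 2, beside 40.6% of all. Eng (endoglin) was at 29.1, 28.3 and 40.6 CPM, Pecam1, the gene of CD31, at 31.02, 25.6 and 38.01 CPM, Egfl7, a secreted vessel factor, at 35.5, 26.4 and 31.4 CPM and Cdh5, the cadherin of endothelium, at 21.9, 19.6 and 22.4 CPM. Sox18 had no count. Pericyte and smooth muscle genes reached 57.8, 47.8 and 78.5 CPM, with Acta2, smooth muscle actin, at 12.96, 17.3 and 17.8 CPM, Mcam, an adhesion molecule of vessels, at 8.85, 8.53 and 17.7 CPM, Rgs5, a pericyte marker, at 8.03, 4.06 and 12.97 CPM and Tagln, an actin-binding protein, at 8.85, 6.87 and 8.68 CPM. Of the lymphatic genes, Prox1, the master factor of the type, had no count and neither did Reln and Mmrn1, while Flt4, a receptor of lymphatic growth factors, was at 2.01, 1.14 and 1.297 CPM. Lyve1, a lymphatic marker that was counted in the macrophage list, was at 26.3, 37.6 and 7.08 CPM and so lowest in tumor 3. Pdpn, which fibroblasts and tumor cells also use, was at 35.6, 34.5 and 26.04 CPM.

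Genes of tissues next to the tumor had low sums. Skeletal muscle genes summed to 24.2, 16.9 and 19.8 CPM with 7 of 15 entries above the floor, a share near the 56.1% of all entries, and were led by Atp2a1, a calcium pump, at 6.11, 8.32 and 6.78 CPM. The myosins Myh1, Myh2 and Myh4 were at the floor. Adipocyte genes summed to 95.9, 87.4 and 71.1 CPM, but most of it came from Fabp4 at 38.3, 35.8 and 36.7 CPM and Plin4 at 34.3, 36.9 and 33.8 CPM. The hormone Adipoq, which defines the cell type, was at 3.28, 1.14 and 0 CPM. Cfd (adipsin) was at 15.1, 9.16 and 0.499 CPM and Car3, a carbonic anhydrase of fat and muscle, at 3.01, 3.23 and 0 CPM. All 3 were thus lowest in tumor 3, while Fabp4 and Plin4 were nearly equal in the tumors. Keratinocyte genes summed to 45.3, 25.5 and 29.4 CPM, led by Sbsn at 27.1, 13.3 and 13.5 CPM, while Krt1, Krt15, Lor and Ivl had no count. Of 6 melanocyte genes only Pmel passed the floor, at 6.39, 8.32 and 8.28 CPM, and of 9 Schwann cell and nerve genes only Prx did, at 1.28, 1.56 and 0.698 CPM.

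Genes of blood were seen in all 3 tumors, with Hba-a1, an alpha globin, at 189.6, 109 and 197 CPM and the beta globin Hbb-bs at 134, 86.9 and 136 CPM. Hbb-b1 had nearly the same counts as its neighbour Hbb-bs, and both entries may hold the same reads. Pf4, of platelets and some macrophages, was at 57.6, 53.1 and 45.2 CPM. Of 22 genes of other organs, 2 were above the floor in each tumor (against 56.1% of all entries). Alb (albumin), made by the liver, had 0, 65 and 5 counts, or 0, 6.76 and 0.499 CPM. The Y-linked Ddx3y, Eif2s3y, Kdm5d and Uty had no count and Xist, of the inactive X chromosome, was at 49.9, 21.2 and 41.8 CPM, beside a host that the labels give as female. Xist was lowest in tumor 2, as were 40.6% of all entries above the floor.

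Some families of genes had almost no counts. Of 1125 olfactory receptor entries, 1087 had no count and 2 were above the floor, with Olfr56 making up 66.3% of the family. Of 342 vomeronasal receptor entries 290 had no count, and 4 were above the floor. Of 52 keratins, 29 had no count and 5 were above the floor, led by Krt17 at 6.11, 2.91 and 2.69 CPM, and of 53 keratin-associated proteins none was above the floor. These shares stand beside 56.1% of all entries above the floor.

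The spread between the tumors was read gene by gene. Over the 8875 entries of 10 CPM or more, the median CV was 10.9%, and 9.71% was left after the counting error of the reads was taken out (excess CV, quartiles 4.54 and 16.7%). This median is low for a true spread, as was seen on simulated counts in which every gene had the same CV. The square root of edgeR's common dispersion, a single pooled value for these entries and not a median, was 17.7%. The excess CV had a median of 8.23% for entries of 1000 CPM or more, 7.84% between 100 and 1000 CPM and 10.6% between 10 and 100 CPM. It rose to 22.3% between 1 and 10 CPM. Tumors correlated across these genes with Pearson's r between 0.963 and 0.976 on log2(CPM + 1), where genes are not independent replicates. In 539 entries (6.07%) the highest tumor was at least 2 times the lowest. The number was 198 when tumor 1 was left out, 288 without tumor 2 and 347 without tumor 3, where 2 tumors leave less room for a difference than 3.

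Among entries of 50 CPM or more, the largest spread was that of Cilp, a matrix protein of cartilage and connective tissue, at 118, 15.5 and 40.01 CPM. Ecm1, another matrix protein, was at 39.8, 139 and 37.6 CPM. Igfbp3, which binds insulin-like growth factors, was at 16.9, 52.5 and 96.7 CPM, Aqp1, a water channel, at 145, 324 and 93.98 CPM and Gja1, the gap junction protein connexin 43, at 59.03, 208 and 87.8 CPM. Ecm1, Aqp1, Gja1 and Il33 were highest in tumor 2, while H2-Aa and Ccl2 were highest in tumor 3. Tap2, Hacd2, Fh1, Ctnnd1, H2-T9 and the noncoding Snhg8 were all in the set low in tumor 1, as were Igfbp3 and Ccl2. Snord89, a small nucleolar RNA, was at 91.3, 52.7 and 13.6 CPM. Between 10 and 50 CPM the largest excess CV was 142%, for Fkbp6, a germ cell protein, at 3.19, 34.7 and 1.497 CPM.

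**Figure D5:**
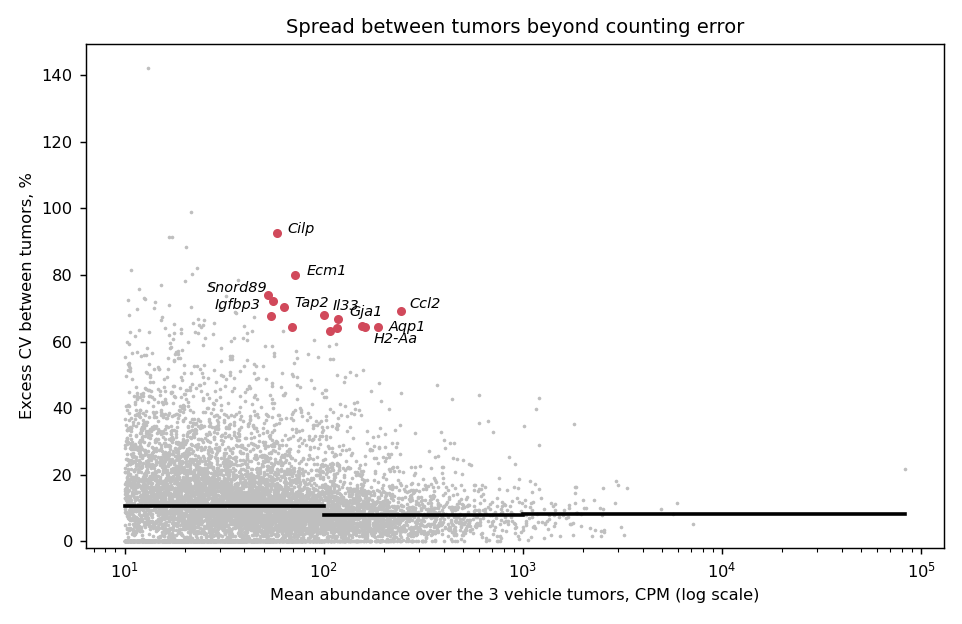
Excess CV in percent, the spread between the 3 vehicle tumors beyond counting error, against mean CPM (log scale) for 8875 entries, with 1 grey point per entry; red points are the 15 largest at 50 CPM or more, and black bars the median of each class of abundance. The upper quartile is 16.7%, and Cilp and Ecm1 are the highest of the red points.

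At the other end, 368 of the 3981 entries of 50 CPM or more (9.24%) differed between the tumors by no more than counting error. The 10 with the smallest SD of log2 CPM are named here. Mbtps1, a protease of the secretory pathway, was at 168, 168 and 168 CPM, and the ATP synthase subunit Atp5e at 213, 214 and 213 CPM. Psmd4 and Psmb1, parts of the proteasome, were at 658, 652 and 656 CPM and 457, 454 and 453 CPM, and Rab7, a GTPase of late endosomes, at 159, 161 and 159 CPM. The others were Timp1, Usp42, Mrpl30, Luc7l3 and Eif2ak1.

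Of the 69 entries low in tumor 2, 9 were among the 53 entries of the leukocyte lists, beside 0.777% of all entries. These were Csf1r, Adgre1, Ctss, Cd74, H2-Ab1, H2-Eb1, Cx3cr1, Ptpn6 and Cd22. Outside the lists, the set held Spi1, a master factor of myeloid cells, at 37.2, 18.2 and 41.4 CPM, Aif1, a macrophage protein, at 98.5, 44.5 and 126 CPM and Cybb, of the phagocyte oxidase, at 101, 46.1 and 114 CPM. The set also held H19, an imprinted noncoding RNA, at 80.3, 18.5 and 65.9 CPM. The 18 entries at least doubled in tumor 2 included Il33, Retnla at 8.39, 17.7 and 5.59 CPM and Gfra1 at 7.48, 45.98 and 10.97 CPM. The 171 entries low in tumor 1 included genes of general use. Pfn1 (profilin), a gene of every cell, was at 27.2, 89.7 and 96.97 CPM, Cox17, a copper chaperone of mitochondria, at 33.9, 143 and 140.3 CPM, Fh1 (fumarase) at 33.9, 136 and 179.98 CPM and Hacd2, of fatty acid elongation, at 12.5, 68.9 and 81.5 CPM. In 137 of the 171, tumors 2 and 3 were within 1.3 times of each other. The 9 entries at least doubled in tumor 1 included S100a8, S100a9, Gzma and Cilp. What set tumor 1 apart in these genes was not tested.

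Some levels are uncertain because entries overlap. In 56 pairs of neighbouring entries of 10 CPM or more, the counts differed by at most 5% in each tumor, and in 2 pairs they were identical. Wdr89 at 1792, 2049 and 1754 CPM and Rplp2-ps1 at 1788, 2044 and 1751 CPM are such a pair, a gene and a pseudogene beside it. Cand2 at 1671, 1877 and 1540.4 CPM lies beside Rpl32 at 2340.4, 2728 and 2268 CPM, and Rpl37rt at 2863, 3264 and 2592 CPM is a retrotransposed copy of Rpl37 at 1197, 1388 and 1011 CPM. High values of such entries cannot be ascribed to either gene.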

How the data were processed

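RNA of 3 vehicle tumors was analysed, from raw counts of reads for each gene symbol that the authors deposited for all 12 tumors. It was made from QuantSeq 3′ mRNA-Seq libraries sequenced on a NextSeq 500 as single-end reads. The aligner, counting tool, genome build and annotation are not given in the sources used here. Columns were assigned by name and label.

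The members and the gene lists were chosen with earlier results of these data known. The 40 lists of 635 symbols were written by hand from general knowledge, and 628 symbols were found, 3 of them under an older name. Trac, Trbc1, Trbc2, Ighm, Igkc, Ly6g and Flg were not analysed here, and some list members that the rule below names are not reported here. Repeated symbols were kept as separate entries.

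CPM was the count over the total count. Excess CV was the square root of the squared CV minus the inverse of the mean count, set to 0 where negative. Total counts were 9611832 to 10960304, which puts 3 counts at 0.274 to 0.312 CPM. Libraries carry no molecular identifiers, so counting error is a lower limit. One group of 3 tumors allows no test of a condition, and no p-value is given. On simulated counts with a true CV of 0.1 in every gene, the excess CV had a median of 0.077 over 8875 genes. The medians given are therefore likely to be low, although real genes need not share a CV.

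The text names the 20 most abundant entries, up to 4 leading and 4 floor members of each list, genes named by the study, and, of entries of 50 CPM or more, the 15 with the largest excess CV and the 10 with the smallest SD of log2 CPM. It also names Hox genes. Other genes (Krt8, Trp53, Myc, Rhox2h, Tap2 among the class I genes, Spi1, Lyve1, Fkbp6 and others) were chosen after their values were seen. Alternatives were TMM library sizes (edgeR 4.0.16), DESeq2 1.42.0 size factors, totals without Rn45s, other minimums and each tumor left out, in R 4.3.3 and Python 3.11.15 with numpy 2.4.6, pandas 2.3.3 and matplotlib 3.10.9.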

Additional observations from a re-analysis of the deposited data

How the results depend on the processing

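No paired analysis was possible because only 1 group was analysed, so that no replicate numbers were shared between groups. The number of genes above the floor stayed within 1.5 times of 13065 under each alternative. It was 14449 with a minimum of 1 count, 11995 with a minimum of 1 CPM, and 13268 to 13442 with 1 tumor left out. With Rn45s taken out of the totals, the 10 most abundant genes held 4.61% of the counts instead of 12.26%. Taking Rn45s out raises every other CPM value within a tumor by the same factor, so every list sum rose. That of the epithelial list went from 72.1 to 78.6 CPM and that of the fibroblast and collagen list from 4491 to 4896 CPM. The median excess CV was 9.71% and moved to 11.4% for entries of 1 CPM or more and 7.87% for entries of 100 CPM or more. With 1 tumor left out it ranged from 6.62% to 8.33%. The square root of edgeR's common dispersion, which is a pooled value and not a median over entries, was 17.7%. The number of entries that differed 2-fold or more, tried in this way after seeing the data, was 495 to 508 under the other scalings and 198 to 347 with 1 tumor left out, where fewer tumors leave fewer differences. Which tumor had the lowest sum changed with the scaling for the proliferation list and for no other of the 40 lists. The tumor with the highest sum changed for that list too. It also changed for the immune checkpoint, interferon-stimulated, erythroid and platelet, and melanocyte lists. At this depth genes under 1 CPM rest on few reads, and 42.0% of those entries differed between tumors by no more than counting error.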
